A study of Bos taurus with 8 samples.

Results

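Small leucine-rich proteoglycans (SLRP) were examined in proliferating bovine muscle cells of beef and dairy cattle. The family was taken as 8 genes, LUM, DCN, BGN, FMOD, PRELP, OGN, ASPN, and OMD, and a probe belonged to it when the RefSeq symbol of its accession was one of them. Of these genes, 6 had a matched probe, among 7788 genes named on the array, and PRELP and OGN were not analysed here. The 6 genes held 7 of the 21475 non-control probes on the array, since DCN had a pair of them. All 7 were well above background in all 16 channels (8 arrays with 2 colours each) and all entered the test.

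Primary cultures were grown from the semitendinosus muscle of Limousin (LIM) and Hereford (HER) beef bulls and of Holstein Friesian (HF) dairy bulls of the same age, and no culture was treated. Cells were taken for RNA while still dividing, at 80% confluence. On 4 arrays HER RNA (Cy3) was hybridised against HF RNA (Cy5), and on the other 4 LIM RNA (Cy5) was hybridised against HF RNA (Cy3), with 4 bulls of each breed, so both comparisons drew on the same HF bulls. Each comparison lay on 1 slide with 1 dye orientation, so breed, dye, and slide cannot be told apart in a difference between LIM and HER. The cultures were enriched for myoblasts by preplating and not sorted, so cells other than myoblasts remained in them. In such bulk RNA, fewer cells of a type and less RNA per cell cannot be told apart.

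SLRP are secreted matrix proteins with a core of leucine-rich repeats, and most of them carry glycosaminoglycan chains. They bind collagen fibrils and set their thickness and spacing, and several of them also bind growth factors of the TGF-β family, among them myostatin, the negative regulator of muscle growth. Decorin and biglycan carry chondroitin or dermatan sulfate chains, whereas lumican, fibromodulin, and osteomodulin carry keratan sulfate, and asporin has no such chain. In skeletal muscle they are made by connective tissue cells and also by myogenic cells. In the RefSeq gene order, LUM and DCN were direct neighbours in 1 cluster with EPYC and KERA, whereas OMD and ASPN were direct neighbours in another with OGN and ECM2.

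The probes of FMOD and LUM were higher in both beef breeds than in HF on all 8 arrays, by 7.79 times for FMOD and 2.54 times for LUM in the mean of both comparisons. A DCN probe and BGN were also higher in that mean, the other DCN probe was lower, and ASPN and OMD did not pass the test. Values below are log2 beef/HF, so 1 means a doubling and a negative value a higher level in HF. A probe passed when limma's test, adjusted by Benjamini-Hochberg over the 17631 probes tested, gave an adjusted p of at most 0.05. In LIM versus HF 3 of the 7 probes passed, all higher, where 35.9% of all probes tested passed, 16.6% as higher and 19.3% as lower. In HER versus HF 2 of 7 passed, both higher, against 25.4% of all probes, 10.7% as higher and 14.7% as lower. In the mean of both comparisons 5 of 7 passed, 4 higher and 1 lower, against 47.5% of all probes, 21.4% as higher and 26.2% as lower. The median of the 7 probes was 0.94 in LIM, 1.36 in HER, and 1.10 in the mean of both, where the median over all probes tested was -0.01, -0.055, and -0.036. With limma's test at the threshold of the study's methods, 0.05 before adjustment with a fold change of 1.3 or more, 5 probes passed in LIM, 4 in HER, and 5 in the mean, against 41.6%, 34.8%, and 41% of all probes. With the methods' t-test at the same threshold, 2 passed in LIM, 3 in HER, and 5 in the mean. Of the 17631 probes tested, 5070, 4823, and 6720 did.

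**Figure D1:**
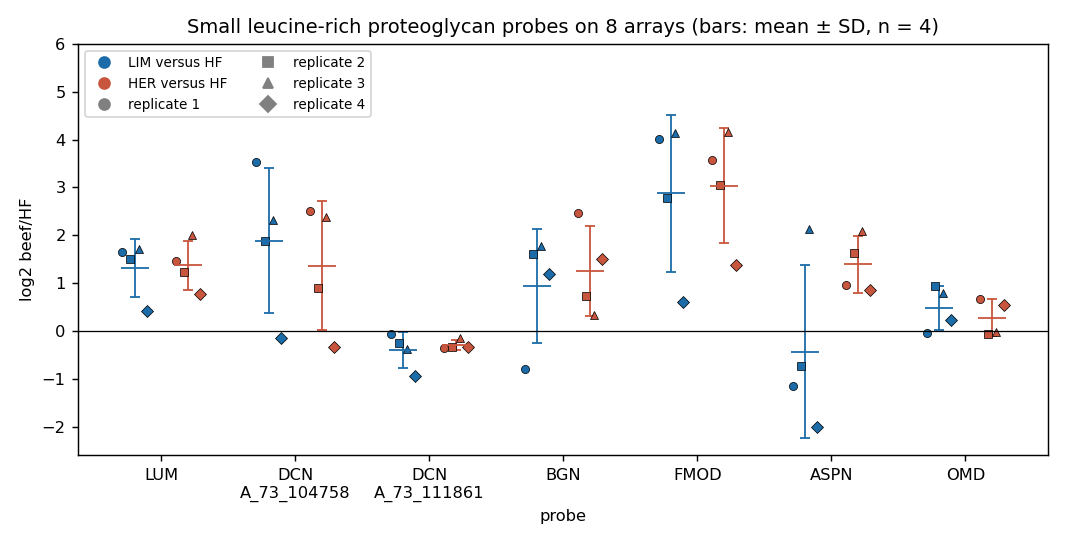
Log2 beef/HF of the 7 probes on each array, with LIM versus HF in blue and HER versus HF in red, marker shapes for the replicates, and bars for mean ± SD (n = 4 arrays). FMOD and LUM lay above 0 on all 8 arrays, and replicate 4 (diamonds) was their lowest array in both comparisons.

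FMOD encodes fibromodulin, which binds collagen type I, sets fibril diameter, and guides lysyl oxidase to its cross-linking sites. Its probe (A_73_118315, NM_174058) read 4.01, 2.77, 4.14, and 0.60 on LIM replicates 1 to 4. On HER replicates 1 to 4 it read 3.58, 3.06, 4.16, and 1.37. Every array was above 0, with replicates 1 to 3 at 2.77 or more in both comparisons and replicate 4 far below them. The mean was 2.88 ± 1.64 (SD, n = 4) in LIM, a 7.37-fold difference (95% interval on the log2 scale 1.48 to 4.28, adjusted p = 0.00814 by limma). In HER it was 3.04 ± 1.20 (SD, n = 4), 8.24-fold (1.64 to 4.44, adjusted p = 0.0119). The HER call was lost without HER replicate 1 (2.86, adjusted p = 0.0567 by limma) and without HER replicate 2 (3.04, adjusted p = 0.0504). The mean of both comparisons was 2.96 (SE 0.43, adjusted p = 0.000975 by limma, higher on 8 of 8 arrays) and exceeded that of 99.7% of all probes tested.

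The array brightness showed in which channel replicate 4 of FMOD stood apart. Brightness here is Feature Extraction's background-subtracted, dye-normalized signal, and it is compared only within 1 probe. In the HF channel FMOD read 2027, 3287, 1327, and 6931 beside HER replicates 1 to 4, and 2240, 3468, 1712, and 10321 beside LIM replicates 1 to 4. In the beef channel it read 24286, 27415, 23655, and 17912 in HER and 36019, 23720, 30216, and 15681 in LIM. The HF signal of replicate 4 was thus 3.42 times the median of the other HF signals on the HER slide and 4.61 times on the LIM slide, whereas the beef signal of replicate 4 was 0.738 and 0.519 times the median of its slide's others. With both arrays of replicate number 4 left out, an alternative chosen after seeing the data, the FMOD mean was 3.64 in LIM and 3.60 in HER.

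LUM encodes lumican, a keratan sulfate proteoglycan that binds the same region of collagen as fibromodulin. Its probe (A_73_100839, NM_173934) read 1.66, 1.51, 1.71, and 0.42 on LIM replicates 1 to 4. On HER replicates 1 to 4 it read 1.47, 1.23, 2.00, and 0.78. All 8 arrays were above 0, and replicate 4 was again the lowest in both comparisons. The mean was 1.32 ± 0.61 (SD, n = 4) in LIM, 2.5-fold (adjusted p = 0.00515 by limma), and 1.37 ± 0.51 (SD, n = 4) in HER, 2.58-fold (adjusted p = 0.0088). LUM had the least spread of the probes that passed in a single breed. Its beef signals ran from 17045 to 23105 in HER and from 23731 to 34600 in LIM, and its HF signals from 5294 to 9948 and from 8636 to 17784. The lowest beef signal of each slide was above the HF signals of all 4 arrays on that slide.

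DCN encodes decorin, which binds collagen type I and also TGF-β and myostatin, and its probes, both listed with NM_173906, did not show the same pattern. Probe A_73_104758 read 3.53, 1.88, 2.31, and -0.14 on LIM replicates 1 to 4, and 2.50, 0.89, 2.39, and -0.33 on HER replicates 1 to 4. It was above 0 on replicates 1 to 3 of both comparisons and below 0 on both arrays of replicate 4. Its mean was 1.89 ± 1.52 (SD, n = 4, adjusted p = 0.0417 by limma) in LIM and 1.36 ± 1.35 (SD, n = 4, adjusted p = 0.133) in HER, and 1.63 (SE 0.43, adjusted p = 0.0151) in the mean of both. On replicate 4 its HF signal was 1.72 times (HER slide) and 2.83 times (LIM slide) the median of the others, and its beef signal 0.315 and 0.46 times. The LIM call was lost without LIM replicate 1 (1.35, adjusted p = 0.155 by limma), replicate 2 (1.90, adjusted p = 0.105), or replicate 3 (1.76, adjusted p = 0.132), and without HER replicate 2, which enters through the shared spread (adjusted p = 0.0586). It was also lost with scaling between arrays (1.69, adjusted p = 0.0604 by limma) and without the filter on dim probes (adjusted p = 0.0644). By the methods' t-test its LIM p was 0.0888 before adjustment and 0.203 after it, so it also missed the study's unadjusted threshold. In all, the LIM call was lost in 8 of 23 alternatives. The call in the mean was lost when the arrays of 1 replicate number were averaged first (adjusted p = 0.066 by limma). With both arrays of replicate number 4 left out, the mean was 2.57 in LIM (adjusted p = 0.00554 by limma) and 1.93 in HER (adjusted p = 0.019). The HER mean also passed with the replicate number as a block in the fit (adjusted p = 0.00972 by limma).

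The other DCN probe, A_73_111861, read -0.06, -0.26, -0.37, and -0.94 on LIM replicates 1 to 4. On HER replicates 1 to 4 it read -0.36, -0.34, -0.15, and -0.34. It was below 0 on all 8 arrays, with LIM replicate 4 the lowest. Neither breed passed (LIM -0.40 ± 0.38, SD, n = 4, adjusted p = 0.058 by limma, and HER -0.29 ± 0.10, SD, n = 4, adjusted p = 0.161), whereas the mean of both fell by 0.35 (SE 0.10, adjusted p = 0.0219), a ratio of 0.785. Its call in the mean was lost without HER replicate 1 (adjusted p = 0.0533 by limma) or HER replicate 2 (adjusted p = 0.054), and in 8 of 24 alternatives in all. Its sign stayed negative in all 24, from -0.41 to -0.25. The mean values of the DCN probes thus had opposite signs, and which part of the transcript each probe reads was not analysed here.

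**Figure D2:**
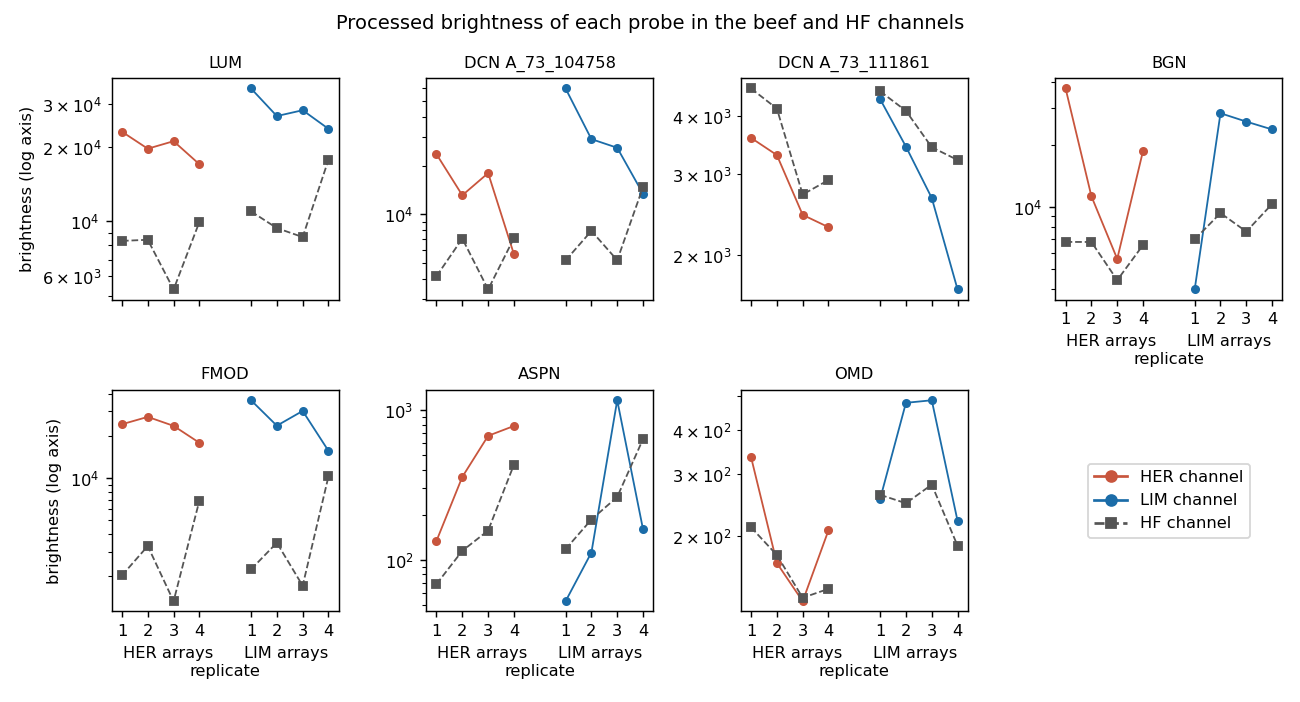
Brightness of the 7 probes (log axis, a scale of its own in each panel) by replicate on the HER arrays (left) and LIM arrays (right) of each panel, with the beef channel as circles and the HF channel as grey squares. The HF signal of FMOD was highest on replicate 4 of both slides, at 6931 and 10321, whereas BGN varied mainly in the beef channel.

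BGN encodes biglycan, the closest relative of decorin and a ligand of Toll-like receptors when soluble. Its probe (A_73_104688, NM_178318) read -0.80, 1.60, 1.77, and 1.20 on LIM replicates 1 to 4, and 2.47, 0.73, 0.34, and 1.51 on HER replicates 1 to 4. It was above 0 on 7 of 8 arrays, and LIM replicate 1 was the exception. Unlike FMOD, BGN varied mainly in the beef channel, where the SD of log2 brightness was 1.16 in HER and 1.35 in LIM, against 0.30 and 0.26 in HF. The beef signal was 37418, 11269, 5609, and 18680 in HER and 3992, 28407, 25874, and 23709 in LIM. Neither breed passed (LIM 0.94 ± 1.19, SD, n = 4, adjusted p = 0.141 by limma, and HER 1.26 ± 0.94, SD, n = 4, adjusted p = 0.0754). The mean of both passed at 1.10 (SE 0.33, 2.15-fold, adjusted p = 0.023 by limma), and not without HER replicate 1 (0.90, adjusted p = 0.06), HER replicate 4 (1.06, adjusted p = 0.0513), LIM replicate 2 (0.99, adjusted p = 0.0614), or LIM replicate 3 (0.96, adjusted p = 0.0635). It was also lost with both arrays of replicate number 4 left out (1.02, adjusted p = 0.0878 by limma) and with the replicate number as a block in the fit. Of the 3 endothelial markers tested, KDR and TEK, receptors of endothelial cells, shared part of this order, as was seen after their values were known, and the junction gene CLDN5 did not. KDR read -0.33, 2.54, 0.74, and 3.09 in LIM and 3.32, -0.15, -2.40, and 1.51 in HER. TEK read 0.63, 3.61, 0.87, and 3.83 in LIM and 3.86, -0.42, -3.29, and 0.79 in HER. For BGN, KDR, and TEK, HER replicate 1 was the highest HER array, HER replicate 3 the lowest, and LIM replicate 1 the lowest LIM array. This order was not particular to endothelial markers. TGFBR2, CCN2, BMP4, and SRGN, from the related lists below, had the same highest and lowest arrays. TGFBR2, for example, read 0.52, 1.36, 0.83, and 0.77 in LIM and 1.29, 0.51, 0.04, and 0.71 in HER. CLDN5 read -0.21, 0.06, 0.13, and -0.23 in LIM and -0.53, -0.88, -0.53, and -0.33 in HER. The part of endothelial cells in the BGN values was not tested.

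ASPN encodes asporin, which competes with decorin for collagen and inhibits TGF-β, and in LIM it showed the widest spread of the 7 probes. Its probe (A_73_106254, NM_001034309) read -1.15, -0.73, 2.14, and -2.0 on LIM replicates 1 to 4. On HER replicates 1 to 4 it read 0.96, 1.64, 2.10, and 0.86. All HER arrays were above 0, whereas 3 of 4 LIM arrays were below 0 and LIM replicate 3 was as high as the highest HER array. The mean was -0.43 ± 1.80 (SD, n = 4, adjusted p = 0.578 by limma) in LIM and 1.39 ± 0.59 (SD, n = 4, adjusted p = 0.106) in HER, and neither passed. Without LIM replicate 3 the LIM mean was -1.29 (adjusted p = 0.0265 by limma) and passed, so the lack of a LIM call depended on this array. Without LIM replicate 4 the LIM mean was 0.09 and did not pass. The HER mean passed with the replicate number as a block in the fit (adjusted p = 0.0418 by limma). Its size depended on the background correction. After normexp and loess of the intensities as measured it was 0.36 (adjusted p = 0.632 by limma). With outlying backgrounds replaced it was 1.06 (adjusted p = 0.124). The LIM signals were 53, 112, 1162, and 160 and the HER signals 134, 358, 673, and 783. The HF signals were 69, 115, 157, and 432 beside HER and 118, 186, 263, and 640 beside LIM, with the same order of the replicate numbers on both slides.

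OMD encodes osteomodulin, a keratan sulfate proteoglycan best known from bone and tooth. Its probe (A_73_115351, NM_173947) read -0.04, 0.94, 0.79, and 0.23 on LIM replicates 1 to 4, and 0.66, -0.07, -0.03, and 0.55 on HER replicates 1 to 4. Values lay on both sides of 0 in both comparisons. The mean was 0.48 ± 0.46 (SD, n = 4, adjusted p = 0.0905 by limma) in LIM, 0.28 ± 0.38 (SD, n = 4, adjusted p = 0.328) in HER, and 0.38 (SE 0.14, adjusted p = 0.0537) in the mean of both. No call was made for OMD, with 95% limits of 0.06 to 0.70 in the mean, although it passed in the mean under 9 of 24 alternatives (0.29 to 0.47 over all 24).

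LIM and HER were compared with each other through their ratios to HF. None of the 7 probes passed, where 0.233% of all probes tested passed. At an unadjusted p under 0.05 by limma the count was also 0, where 2586 of the 17631 probes tested lay under it. The largest difference was that of ASPN, -1.82 for LIM minus HER (95% interval -3.67 to 0.02, adjusted p = 0.346 by limma). Over the 21 alternatives run for it, the ASPN difference ran from -2.68 to -0.40. For FMOD the difference was -0.16 with an interval of -2.14 to 1.82, and for LUM -0.05 with -0.86 to 0.77. With 4 arrays per breed, any difference within these intervals remained compatible with the data.

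**Figure D3:**
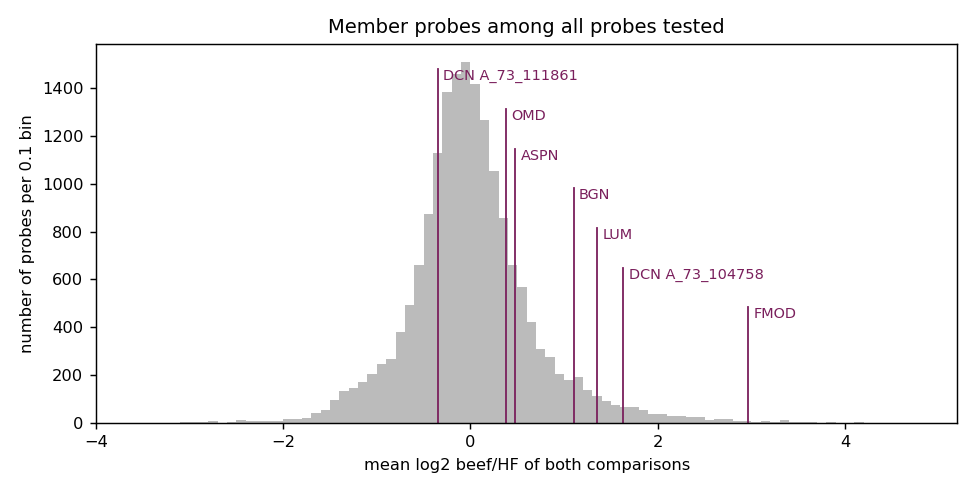
Distribution of the mean log2 beef/HF of both comparisons over the 17631 probes tested (grey bars, number of probes per 0.1 bin), with the 7 SLRP probes as labelled lines whose heights only separate the names. FMOD at 2.96 lay above 99.7% of the probes and LUM at 1.35 above 96.1%, whereas DCN A_73_111861 lay at -0.35.

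The genes closest to FMOD and LUM were sought among 6762 named genes by the root mean square difference of log2 beef/HF over the 8 arrays. MYOC, which encodes the secreted glycoprotein myocilin, was closest to FMOD (0.34, with means of 3.11 in LIM and 3.16 in HER). It was followed by COL1A2 (0.52) and COL3A1 (0.58), which encode chains of the fibrillar collagens I and III. For LUM the closest were ROGDI (0.20), the lysosomal fucosidase FUCA1 (0.30), and EVC2, a protein of the primary cilium (0.30). These likenesses are a description over arrays that share HF RNA.

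Among the collagen fibril partners and the enzymes that process them, 11 of 22 genes listed were tested. In the mean of both beef comparisons 8 of 11 were higher and 0 lower. Of all probes tested, 21.4% passed as higher in that mean and 26.2% as lower. The median of the list was 2.22, beside -0.036 over all probes. COL1A1, which encodes a chain of collagen I, was 2.22 higher (SE 0.29, adjusted p = 0.000605 by limma). The collagen chain COL11A1 was 3.52 higher (SE 0.46, adjusted p = 0.000624), the lysyl oxidase family member LOXL2 2.32 higher (SE 0.19, adjusted p = 0.000163), and fibronectin, FN1, 2.67 higher (SE 0.28, adjusted p = 0.000307). All 4 were above 0 on 8 of 8 arrays. In the single breeds, 8 of 11 genes passed as higher in LIM and 7 in HER, beside 16.6% and 10.7% of all probes. The median of this list was lowest on replicate 4 in both comparisons, at 0.53 in LIM and 0.93 in HER, against 1.91 to 2.62 in LIM and 1.96 to 2.63 in HER on the others. These were also the arrays on which FMOD, LUM, and DCN A_73_104758 were lowest.

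Other members of the SLRP family did not move with FMOD and LUM. Of 9 genes listed, 3 were tested, and 2 of them were lower in the mean of both comparisons, where 26.2% of all probes passed as lower. EPYC, which encodes epiphycan, known from cartilage, lies in the same cluster as LUM and DCN. It read -0.77, -0.72, -1.42, and -2.44 on LIM replicates 1 to 4 and -1.61, -0.99, -1.01, and -0.97 on HER replicates 1 to 4. It was below 0 on 8 of 8 arrays, with a mean of -1.24 (SE 0.19, adjusted p = 0.00123 by limma). TSKU, the secreted regulator tsukushi, had a mean of -0.40 (SE 0.08, adjusted p = 0.00487), and CHAD, chondroadherin, read -0.03 and did not pass. KERA and OPTC, known from the cornea and eye, were too dim to test.

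Of the genes that build and sulfate glycosaminoglycan chains, 14 of 30 were tested, and 3 were higher and 2 lower in the mean of both comparisons, with a median of 0.10. FAM20B, the kinase that phosphorylates the xylose of the linker, had a mean of -0.67 (SE 0.13, adjusted p = 0.0036 by limma). CHSY3, a chondroitin synthase, was 0.86 higher (SE 0.17, adjusted p = 0.00365). B4GALT4, a galactosyltransferase of keratan sulfate synthesis, was 0.51 higher (SE 0.12, adjusted p = 0.0072), and PAPSS1, which makes the sulfate donor, had a mean of -0.31 (SE 0.09, adjusted p = 0.0171). The list thus moved in both directions, in 5 of 14 genes, beside 47.5% of all probes.

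Of the other proteoglycans, 6 of 23 were tested, with 2 higher and 1 lower in the mean of both comparisons, where 47.5% of all probes passed. NCAN, neurocan, known from the nervous system, had a mean of -0.91 (SE 0.09, adjusted p = 0.000291 by limma). Both genes that were higher, SRGN (serglycin, the proteoglycan of secretory granules) and GPC5 (a glypican), were barely measured in HF. They were well above background in 1 and 0 of the 8 HF channels, so no fold is given for them. HSPG2, a heparan sulfate proteoglycan, had no matched probe here, whereas the study lists it as higher in both beef breeds at its own threshold.

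Of the ligands and receptors that SLRP bind, 11 of 18 were tested, with 3 higher and 2 lower and a median of 0.34, so 5 of 11 passed, beside 47.5% of all probes. The TGF-β isoforms moved apart, with TGFB2 1.31 higher (SE 0.20, adjusted p = 0.00106 by limma, 8 of 8 arrays), TGFB3 at -1.06 (SE 0.18, adjusted p = 0.00202, lower on 8 of 8), and TGFB1 at -0.63 (SE 0.14, adjusted p = 0.00564). A further probe of TGFB3 read -0.89. TGFBR2, their type II receptor, was 0.75 higher (SE 0.15, adjusted p = 0.00354), and VLDLR, a lipoprotein receptor, 1.35 higher (SE 0.28, adjusted p = 0.00503). MSTN, which encodes myostatin, was too dim to test. Of the proteases known to cut SLRP, 6 of 9 were tested and only MMP2, a gelatinase, passed in the mean of both, 1.97 higher (SE 0.26, adjusted p = 0.000647, 8 of 8 arrays).

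**Figure D4:**
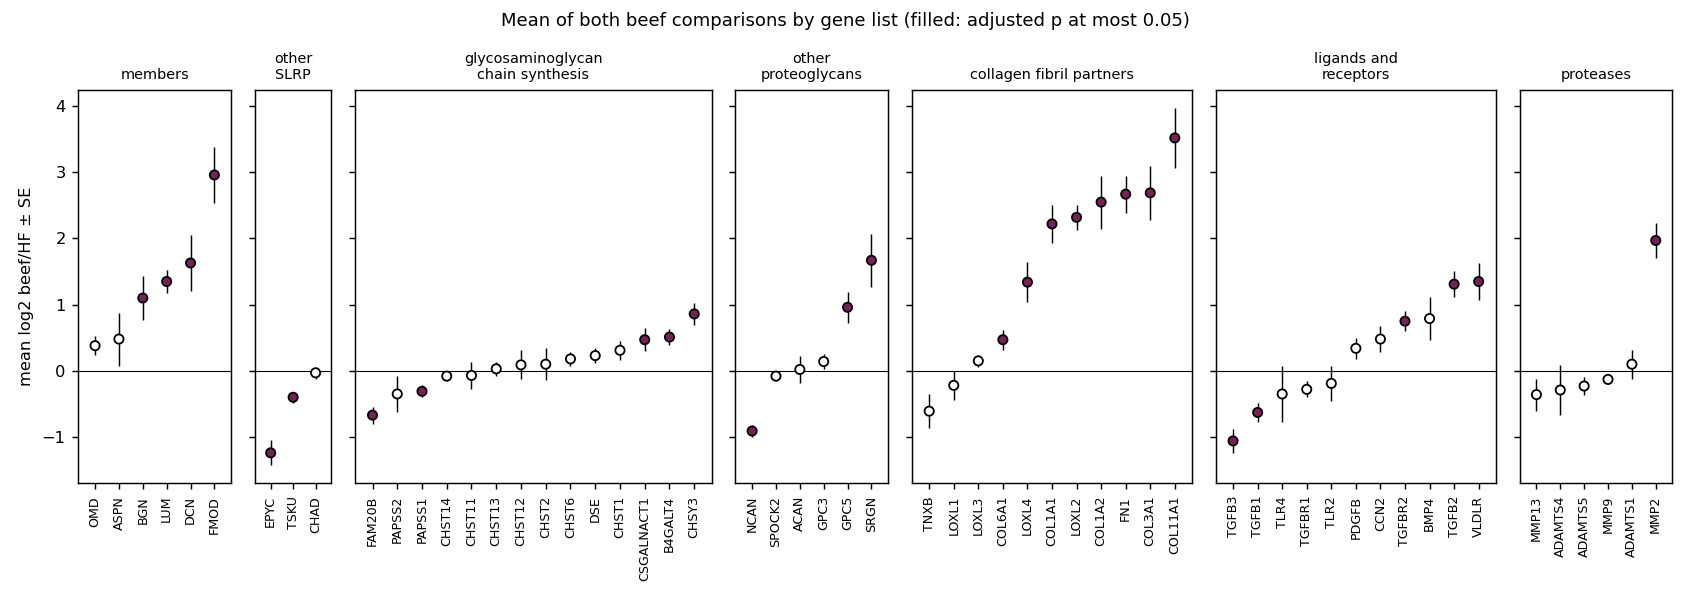
Mean log2 beef/HF of both comparisons (± SE, 8 arrays) for each gene tested in the SLRP list and in 6 lists of genes related to it, DCN being shown by its brighter probe, A_73_104758. Filled points passed at an adjusted p of at most 0.05. The collagen fibril partners reached 3.52 (COL11A1) with 8 of 11 genes higher, whereas the other SLRP genes lay at or below 0.

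Markers of the cell types in such a culture moved with the comparison. The counts below are for the mean of both beef comparisons, where 47.5% of all probes passed, 21.4% as higher and 26.2% as lower. Skeletal muscle markers were well above background in all channels, and 9 of 10 tested were higher in the mean of both beef comparisons, with a median per array of 1.29 to 2.35 in HER and 1.69 to 2.73 in LIM. PAX7, the marker of satellite cells, had no matched probe. Of 8 fibroblast markers tested, 5 were higher, COL1A1 and COL3A1 among them, which also belong to the collagen list, and 2 were lower. The medians per array were 0.28 to 1.51 in HER and 0.32 to 1.60 in LIM. The defining receptor of fibro-adipogenic cells, PDGFRA, had a mean of -1.42 (adjusted p = 0.000313 by limma) and was lower on 8 of 8 arrays, and TCF21 had a mean of -1.13 (adjusted p = 0.00279). Smooth muscle and pericyte markers were higher in 2 of 4 genes tested, tendon markers in 1 of 2 (MKX), and macrophage and leukocyte markers in 1 of 2 (CD68, with AIF1 and ITGAM too dim to test). Of 5 adipocyte markers 2 were higher and 2 lower, and 1 of 3 endothelial markers and 1 of 3 chondrocyte and bone markers were lower. The part of the cell mixture in the SLRP values was not tested.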

How the data were processed

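RNA of LIM, HER, and HF muscle cell cultures was hybridised on 8 two-colour Agilent arrays, and the labels gave the breed, the dye, and the number of each replicate. The authors deposited Feature Extraction 10.7.3.1 output with red and green spot intensities, processed brightness, and the log10 of red (Cy5) over green (Cy3), already background-subtracted and dye-normalized. The value table deposited for the series was identical to this log10 ratio, with a largest difference of 0. The submitters' processing notes also name the genome release HGSC Btau_3.1. The methods name a Bovine (V2) array, whereas the file headers give a design number without a version.

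The log10 ratio was converted to log2, its sign was turned on arrays with the beef breed in Cy3, spots marked as outlying were left out, and the spots of a probe were averaged (2 for each SLRP probe). Probes that the software marked as well above background in 4 or more of the 16 channels (17631 of 21475) entered 1 fit over all 8 arrays (limma 3.58.1, lmFit and eBayes, R 4.3.3), with Benjamini-Hochberg adjustment over all of them. The mean of both comparisons cancels a dye effect of a probe. It treats the 8 arrays as independent although the HF bulls are shared, and with 4 arrays per breed the number of arrays limits the precision. No spot was saturated, and 68.8% to 85.2% of spots were well above background in the beef channel and 73.9% to 78% in HF. Gene names came from RefSeq (bovine assembly ARS-UCD2.0, used for names and gene order alone), which matched 7793 of 20693 accessions. For each related list, up to 4 genes with the lowest adjusted p in the mean of both comparisons were to be named, and of a gene with several probes the brightest stood for it in lists. A few further genes, TGFB1 and the markers among them, were named after their values were seen. The members and lists were chosen with earlier results of these data known. The fit was tested on simulated data. Alternatives in background correction, scaling, filter, weights, test, and arrays left out are given at the end. Probe sequences were not analysed here.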

Additional observations from a re-analysis of the deposited data

Results flagged for a closer look

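In 14 groups of 4 arrays (7 probes in each comparison), 2 single arrays stood apart from the other 3 by Dixon's criterion (the gap to the nearest array as a share of the range), where chance gives about 1 in 20 groups. LUM read 0.42 on LIM replicate 4, and the gap to the next array was 0.845 of the range of the 4 LIM arrays. DCN A_73_111861 read -0.15 on HER replicate 3, with a gap of 0.899 of a range that is narrow, from -0.36 to -0.15. Replicate 4 of FMOD and of DCN A_73_104758 was also the lowest in both comparisons but stayed under this limit.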

How the results depend on the processing

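The calls of LUM and FMOD in the mean of both beef comparisons held under all 24 alternatives run (LUM 1.24 to 1.60, FMOD 2.58 to 3.62). In LIM versus HF 3 probes passed, against 2 with scaling between arrays, without the filter on dim probes, and with the methods' t-test unadjusted (5070 of all probes), 5 with array weights, 5 with an unadjusted limma p and a fold change of 1.3, and 0 with the methods' t-test after Benjamini-Hochberg (1077 of all probes instead of 6329). In HER versus HF 2 passed, against 4 with a replicate block, 4 with the unadjusted p and fold change, 0 with the methods' t-test after Benjamini-Hochberg (2 of all probes instead of 4473; 3 and 4823 unadjusted), and 0 after normexp and loess of the intensities as measured (0 of all probes). Replacing outlying red backgrounds, which reached 775167 on HER replicate 3 against a median of 37, gave 2 again (3959 of all probes). Leaving out 1 array gave 2 to 4 probes in LIM, 1 to 3 in HER, and 3 to 6 in the mean of both, where 5 passed. The lowest HER counts came without HER replicate 1 (1, with 1574 of all probes) and HER replicate 2 (1, with 1527), and the lowest in the mean without HER replicate 1 (3). Without LIM replicate 3, 3796 of all probes passed in LIM, and without HER replicate 3, 2660 passed in HER. LIM minus HER gave 0 SLRP probes in all 21 alternatives run for it, against 41 of all probes in the reported fit and 0 to 2482 across the alternatives. ASPN in LIM, -0.43, turned to 0.32 with array weights and to 0.09 both without LIM replicate 4 and with both arrays of replicate number 4 left out, whereas it passed at -1.29 without LIM replicate 3. The cause of these changes was not tested. Averaging the arrays of 1 replicate number first, chosen after seeing the data, lost DCN A_73_104758 (adjusted p = 0.066 by limma) and DCN A_73_111861 (0.0572) in the mean of both and gained OMD (0.0218). DCN A_73_111861 was also lost there with all 3 loess alternatives (0.0536 to 0.0547) and at the methods' fold limit.

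Replicate numbers were not taken as pairs, since the labels do not say which HF bull was on which array. Deviations of log2 beef/HF between same-numbered arrays correlated at -0.24 to 0.54. These ratios also hold the beef side, from bulls of different breeds, so they cannot show whether the HF side was shared. HF brightness deviations of same-numbered arrays correlated at 0.62 to 0.82, against at most 0.02 for other numbers, a hint from the data. With the replicate block, DCN A_73_104758 (adjusted p = 0.00972 by limma) and ASPN (0.0418) also passed in HER, and BGN (0.0662) no longer passed in the mean of both.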
